A study of Rattus norvegicus with 7 samples.

Results

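The comparison set the transcriptome of newborn rat heart muscle cells given the microRNA miR-1825 against that of the same kind of cells given cel-miR-67, a microRNA of the nematode worm. Its members were the 12330 of 17141 listed genes whose mean over all 7 libraries of the series was at least 1 RPKM (RPKM is reads scaled to the length of the gene and the size of the library), and 11311 of them were protein-coding. The gene pair at that limit was Sh3rf1, with a mean of 1.00 RPKM and inside it, and Klhdc7a, with a mean of 0.999 and outside it. All groups were ventricular cardiomyocytes of wild-type Wistar rats at postnatal day 0, from ventricles freed of the atria. The dissociated cells were left on plastic for 2 h and those that did not attach were kept, which the submitters describe as mostly cardiomyocytes. Each culture was transfected with 1 synthetic microRNA from Dharmacon at 25 nM with Lipofectamine RNAiMAX. RNA was taken at 72 h for a TruSeq mRNA library. The human sequences hsa-miR-1825, hsa-miR-199a-3p, hsa-miR-590-3p, hsa-miR-373-3p, hsa-miR-302d-3p and hsa-miR-33b* were tested, and cel-miR-67, which no label names as a control, is the denominator of the deposited ratios. With 1 library for each microRNA no difference below has a replicate check, no test was possible, and how many animals gave each culture is not stated.

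A microRNA is a short RNA that guides an Argonaute protein to messenger RNAs with matching sites, mostly in the 3′ untranslated region, and lowers their stability or translation. Introducing one into a cell therefore acts on many transcripts at the same time, directly and through the genes they control. Cells meet misfolded protein, lack of amino acids, oxidants, DNA damage and lack of oxygen with separate transcriptional programs, run among others by HSF1, ATF4, NRF2, p53 and HIF1. Heart muscle cells of newborn rodents still divide for a few days before they leave the cell cycle, and their energy supply changes over the same period from glycolysis towards the oxidation of fatty acids. The series title places these microRNAs among those that induce proliferation of cardiomyocytes.

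Reads summed over the listed genes ranged from 22616067 to 31963293 over the 7 libraries, with 24836246 after cel-miR-67 and 26779307 after miR-1825. Mitochondrially encoded genes held 41.0% of the listed reads after cel-miR-67 and 35.5% after miR-1825, between 27.7% and 41.4% after the other 5 microRNAs, and the part of this share in the results below was not tested. All 9 cardiomyocyte markers that were matched were measured, and their summed level was 13846 RPKM after cel-miR-67 and 13578 after miR-1825. Of these 9, 8 were below 0 and 3 at least 1.5-fold lower, at a median change of -0.15 (-0.45 to -0.05 after the other 5). The only marker above 0 was the natriuretic peptide Nppa, from 1860 to 3054 RPKM, which holds up the sum. The ventricular light chain Myl2 was at 6838 and 6454 RPKM and the cardiac troponin Tnnt2 at 2433 and 1955 RPKM in these libraries. In such bulk samples fewer cells of a type and less RNA per cell cannot be told apart.

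The change of a gene was computed as log2 of (RPKM + 1) after miR-1825 over (RPKM + 1) after cel-miR-67, which understates the change of genes at low levels. By this measure 247 genes (2.00% of those tested) were at least 2-fold higher and 201 (1.63%) at least 2-fold lower, and 20 and 9 of them at least 4-fold. Over all genes the median change was 0.0029 with an SD of 0.42, and the middle 95% of genes lay between -0.86 and 0.92. Reads could be recovered from the RPKM values, and each ratio of read rates below has an exact Clopper-Pearson 95% interval, which covers counting error only and compares these 2 libraries, not the treatments. With 5 RPKM added in place of 1 the counts were 104 and 59, and with 0.1 RPKM 389 and 403. The interval left out 1 for 224 of the 247 higher and 178 of the 201 lower genes. Mostly genes of division stood at the top. The mitotic cyclin Ccnb1 went from 10.4 to 107 RPKM. The mitotic kinases Nek2 and Aurka went from 8.24 to 45.3 RPKM and from 5.48 to 30.0 RPKM. Genes of other kinds there were the ubiquitin-conjugating enzyme Ube2t, from 6.45 to 40.8 RPKM, and the mitochondrial ribosomal protein Mrps12, from 4.66 to 24.8 RPKM. At the bottom stood the oxygen-binding protein myoglobin (Mb), from 252 to 39.3 RPKM, and the sarcomere M-band protein Myom2, from 34.0 to 5.56 RPKM. Some of these changes were shared with other microRNAs. Mrps12 was at 13.8 to 21.7 RPKM after the other 5. Myom2 was at 5.91 with miR-33b*, 6.32 with miR-373-3p, 8.44 with miR-302d-3p, 9.02 with miR-590-3p and 26.4 with miR-199a-3p.

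**Figure D1:**
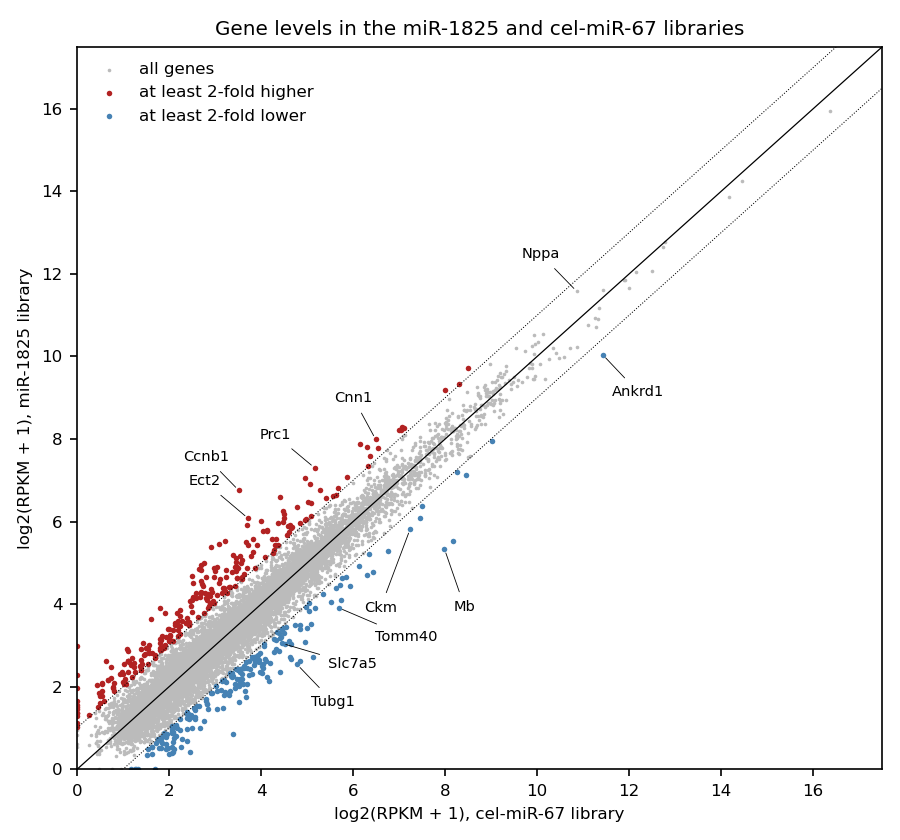
Each point is 1 of the 12330 genes, with log2(RPKM + 1) in the cel-miR-67 library on the horizontal axis and in the miR-1825 library on the vertical axis, the solid line at equal levels and the dotted lines at 2-fold. The 247 red genes lie at least 2-fold above equality and the 201 blue ones at least 2-fold below, with Ccnb1, Ect2 and Prc1 high and Mb, Ckm and Ankrd1 low.

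All 6 microRNAs were compared with the same cel-miR-67 library, so that a gene with an unusual level there appears changed in all 6 comparisons. Levels were therefore also set against all other 6 libraries: 46 genes (0.373%) were at least 1.5-fold above the highest of them after miR-1825, on the (RPKM + 1) scale, and 98 (0.795%) at least 1.5-fold below the lowest. The same counts for cel-miR-67 were 26 and 72, and for miR-590-3p 6 and 17. Both criteria, 2-fold against cel-miR-67 and 1.5-fold against every other library, were met by 33 higher and 57 lower genes. Of all genes, 19.2% had their highest and 16.5% their lowest level of the 7 in the miR-1825 library, and these shares are the background for the counts below.

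The 15 stress gene lists held 398 genes, of which 382 were matched and 343 measured. They did not stand out as a whole: 5 (1.46%) were at least 2-fold higher and 8 (2.33%) lower, and 21 (6.12%) and 30 (8.75%) passed 1.5-fold, against 5.94% and 6.33% of all genes. Their median change was -0.0054. After miR-1825, 71 stress genes (20.7%) were the highest of the 7 libraries and 42 (12.2%) the lowest. Changes at least 1.5-fold outside the range of the other 5 microRNAs were found for 60 of all genes on the higher side (0.487%) and 119 on the lower side (0.965%), and for 3 stress genes: Cxcl10 was higher, and Slc7a5 and Ckm were lower.

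**Figure D2:**
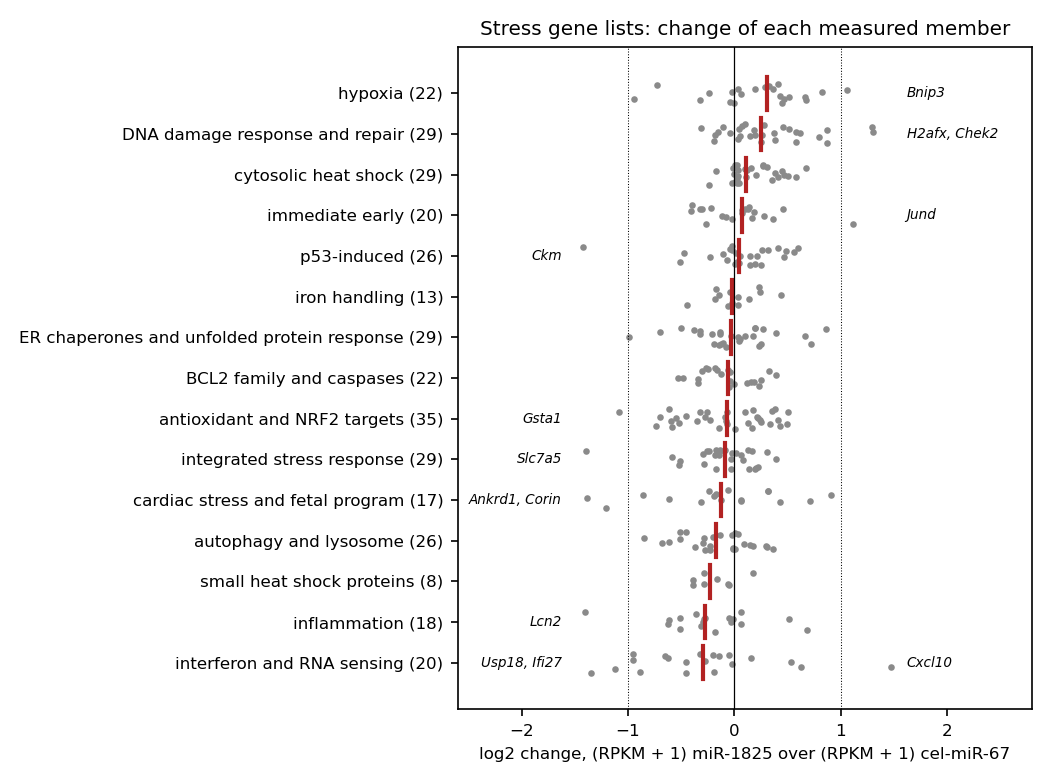
Each point is the log2 change after miR-1825 of 1 measured gene, by stress list, with the number of genes measured in parentheses, the list median as a red bar and 2-fold as dotted lines. Genes past 2-fold are named at the edge of their row; the list medians run from -0.30 (interferon and RNA sensing) to 0.31 (hypoxia).

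The integrated stress response, in which blocked translation initiation raises ATF4 and with it the genes of amino acid uptake and synthesis, held the stress gene farthest from the other microRNAs. Slc7a5, the subunit of the LAT1 transporter that carries large neutral amino acids, was at 20.8 RPKM after cel-miR-67, 7.27 after miR-1825, 18.4 with miR-590-3p, 15.8 with miR-33b*, 18.4 with miR-302d-3p, 16.6 with miR-199a-3p and 17.2 with miR-373-3p. The miR-1825 library was the lowest, and the next lowest was that of miR-33b*. The change of Slc7a5 was -1.40, against -0.37 to -0.17 after the other 5, with a ratio of read rates of 0.350 (95% counting interval 0.319 to 0.383). Its partner in the transporter, the heavy chain Slc3a2, was also lowest of the 7, at 31.2 RPKM against 44.9 after cel-miR-67 and 37.6 to 42.6 after the other 5. The same position was taken by Phgdh, the first enzyme of serine synthesis (from 45.6 to 31.4 RPKM, with 40.8 to 52.2 in the other 5), and by the stress-induced regulator Nupr1 (from 61.3 to 40.5 RPKM, with 46.7 to 61.5). Further members lowest of the 7 were the mitochondrial one-carbon enzymes Mthfd2, Shmt2 and Aldh1l2, the cystine transporter Slc7a11, the kinase Eif2ak4 and the phosphatase subunit Ppp1r15b. In all, 10 of 29 measured members were lowest and 2 highest, among them Eif2ak1, the haem-regulated kinase of the pathway, from 12.2 to 16.3 RPKM. The regulator and other targets were near the cel-miR-67 level: Atf4 was at 170.4 and 178 RPKM, asparagine synthetase Asns at 18.8 and 22.1, and Ddit3 at 20.0 and 19.5. The list median was -0.08, between -0.03 and 0.02 after the other 5.

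The promoter of Slc7a5 is shown because, among the stress genes, this one lay farthest from all other libraries. Some genes outside the stress lists, such as Tubg1, lay farther out and are described below. RefSeq places the Slc7a5 promoter in build GRCr8 at chr19:66872363-66872662, minus strand, 250 bases before to 50 after the start of the gene. Capitals mark the E-box CACGTG, which reads the same on both strands and is found in 6.65% of the 27457 promoters of this length. In the integrated stress response list, 3 of the 26 members with a promoter entry (11.5%) hold it.
Slc7a5: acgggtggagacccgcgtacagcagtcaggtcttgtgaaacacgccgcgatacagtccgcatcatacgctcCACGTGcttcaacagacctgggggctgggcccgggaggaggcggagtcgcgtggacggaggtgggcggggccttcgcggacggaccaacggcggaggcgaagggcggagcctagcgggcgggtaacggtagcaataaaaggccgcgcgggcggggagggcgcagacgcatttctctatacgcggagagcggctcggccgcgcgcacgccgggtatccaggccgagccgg
The C/EBP-ATF response element, searched as TGATGNAA on both strands, has no match in this window. It was found in 5 of the 26 members of the list with a promoter entry (19.2%) and in 3.82% of all promoters. A match is a description of letters and not a bound site or a cause.

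Cytosolic heat shock genes, the HSF1-controlled chaperones and their partners, were slightly higher as a list: 24 of 29 measured members were above 0 (50.5% of all genes were above and 49.5% below), 10 were the highest of the 7 libraries and none the lowest, and the median of 0.11 compares with -0.06 to 0.05 after the other 5. By summed level miR-1825 was not the highest: 1791 RPKM after cel-miR-67, 1995 after miR-1825, 2127 with miR-373-3p and 2138 with miR-302d-3p. Only 1 member, Hsp90aa1, passed 1.5-fold. This inducible HSP90 was at 261 RPKM after cel-miR-67, 418 after miR-1825, 377 with miR-373-3p, 303 with miR-590-3p, 308 with miR-33b*, 246 with miR-199a-3p and 383 with miR-302d-3p. It was highest after miR-1825, with the libraries of miR-302d-3p and miR-373-3p close below. Its co-chaperone Stip1 went from 57.7 to 80.0 RPKM and the HSP40 protein Dnajb1 from 9.63 to 13.5 RPKM, both again the highest of the 7. The inducible HSP70 genes Hspa1a and Hspa1b, nearly identical copies whose reads the counting may have split, were at 2.89 and 3.99 RPKM and at 5.26 and 7.31 RPKM, and all other 5 microRNAs left both at or below the cel-miR-67 level. The constitutive Hspa8 was at 69.8 and 69.6 RPKM. Small heat shock proteins, abundant in muscle, were not part of this: 7 of 8 were below 0 at a median of -0.22, which was 0.12 when the median of the other 5 microRNA libraries was the reference, and Hspb2 went from 198 to 151 RPKM, the lowest of the 7.

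Genes of the endoplasmic reticulum showed no common direction, with 14 of 29 above 0, 15 below and a median of -0.03 (-0.33 to 0.08 after the other 5). The oxidoreductase Pdia3 was lowest of the 7, from 86.5 to 52.7 RPKM, while Sec61b of the translocation channel was highest, from 30.3 to 50.5 RPKM. Herpud1, of the degradation machinery, went from 43.6 to 21.5 RPKM and the chaperone calnexin (Canx) from 80.2 to 147 RPKM, but both stood at 15.2 to 27.5 and 153 to 195 RPKM after the other 5 as well. The main chaperone of the compartment, Hspa5, was at 585 and 467 RPKM.

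In the antioxidant list, 6 of 35 measured genes were at least 1.5-fold lower and none higher, and the median was -0.07. The glutathione transferase Gsta1 was at 12.9 RPKM after cel-miR-67, 5.57 after miR-1825, 11.3 with miR-33b*, 7.71 with miR-373-3p, 13.8 with miR-199a-3p, 6.10 with miR-302d-3p and 8.59 with miR-590-3p. It was lowest after miR-1825, but the miR-302d-3p library was close, and genes of this family are similar enough that reads may be shared. Gsta4 went from 88.8 to 52.9 RPKM and the peroxidases Prdx6 and Gpx1 from 79.6 to 48.8 RPKM and 170.2 to 111 RPKM, all 3 within the range of the other microRNAs. Among the 5 members highest of the 7 were the glutathione synthesis enzyme subunit Gclc, from 14.6 to 19.3 RPKM and the thioredoxin reductase Txnrd1, from 22.8 to 29.3 RPKM, and 7 members were lowest of the 7. Outside the lists, the microsomal glutathione transferase Mgst2 was the protein-coding gene with a mean of at least 5 RPKM farthest above all other libraries: it was at 6.55 RPKM after cel-miR-67, 15.4 after miR-1825, 6.72 with miR-590-3p, 7.08 with miR-33b*, 4.58 with miR-302d-3p, 5.10 with miR-199a-3p and 5.86 with miR-373-3p. The next highest library was that of miR-33b*, and the ratio of read rates to cel-miR-67 was 2.35 (95% counting interval 1.72 to 3.23). Iron handling genes were at a median of -0.02, with the ferritin light chain Ftl1 highest of the 7, from 219 to 297 RPKM.

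Most inhibitors of the cell cycle were higher after miR-1825, while genes induced by p53 changed little as a list. Of 26 measured p53-induced genes 17 were above 0, 1 was at least 1.5-fold higher and 1 lower. Their summed level was 805 RPKM after cel-miR-67 and 740.5 after miR-1825. The fall of the single member Ckm, from 149.9 to 55.2 RPKM, is larger than the fall of this sum. The inhibitor Cdkn1a (p21) was at 9.61 RPKM after cel-miR-67, 15.1 after miR-1825, 6.21 with miR-373-3p, 9.03 with miR-590-3p, 14.5 with miR-33b*, 10.3 with miR-199a-3p and 5.44 with miR-302d-3p. Levels after miR-1825 and miR-33b* were close and all others lower. The p53 ubiquitin ligase Mdm2 went from 14.5 to 20.8 RPKM and the RNA-binding p53 target Zmat3 from 4.30 to 6.81 RPKM, both the highest of the 7. The kinase Plk2 was lower, from 178 to 128 RPKM, within the 89.7 to 137 of the other 5. In this list 9 genes were the highest of the 7 libraries and 2 the lowest, and the median was 0.05 (-0.07 to 0.15 after the other 5). The gene farthest out in this list, Ckm, is muscle creatine kinase. It was at 149.9 RPKM after cel-miR-67, 55.2 after miR-1825, 107 with miR-33b*, 149.7 with miR-373-3p, 132 with miR-199a-3p, 149 with miR-302d-3p and 111 with miR-590-3p. Ckm was lowest after miR-1825, next with miR-33b*, and its ratio of read rates was 0.369 (95% counting interval 0.350 to 0.388). Among 15 cell cycle inhibitors 14 were above 0 and 11 highest of the 7, at a median of 0.44, where the other 5 microRNAs had medians of -0.44 to -0.01. Cdkn2c, which holds CDK4 and CDK6, was at 5.45 RPKM after cel-miR-67, 18.3 after miR-1825, 16.2 with miR-590-3p, 9.89 with miR-33b*, 4.33 with miR-302d-3p, 13.0 with miR-199a-3p and 4.65 with miR-373-3p. It was highest after miR-1825, then with miR-590-3p and miR-199a-3p, lower with miR-33b* and lowest in the remaining 3 libraries. Wee1, the kinase that holds CDK1 inactive, went from 12.5 to 17.4 RPKM, the highest of the 7.

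DNA damage response genes had 23 of 29 members above 0 and 12 highest of the 7, with a median of 0.25 (0.01 to 0.28 after the other 5). The histone variant H2afx, phosphorylated at DNA breaks, was at 23.1 RPKM after cel-miR-67, 58.1 after miR-1825, 21.8 with miR-373-3p, 50.4 with miR-590-3p, 40.3 with miR-33b*, 37.3 with miR-199a-3p and 37.2 with miR-302d-3p. Fancd2 of the Fanconi pathway went from 4.64 to 9.34 RPKM, Fanci, its partner, from 7.84 to 12.6 RPKM, and the ubiquitin ligase Rad18 from 4.90 to 9.26 RPKM, all highest of the 7. The checkpoint kinase Chek2 went from 2.55 to 7.81 RPKM, with 2.63 to 5.48 RPKM after the other 5.

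Immediate early genes, transcribed within minutes of a stimulus, were near the cel-miR-67 level, with 11 of 20 above 0, 9 below and 1 at least 1.5-fold higher. Their median was 0.07, while the other 5 microRNAs had medians of -0.51 to -0.16, and 9 of the 20 were the highest of the 7 libraries and none the lowest. Jund, a subunit of the AP-1 transcription factor, was at 11.3 RPKM after cel-miR-67, 25.7 after miR-1825, 16.9 with miR-33b*, 7.15 with miR-373-3p, 13.5 with miR-199a-3p, 13.8 with miR-302d-3p and 15.5 with miR-590-3p. Only the miR-1825 library was above 2-fold, and the ratio of read rates to cel-miR-67 was 2.26 (95% counting interval 2.03 to 2.54). Ier5 went from 42.0 to 54.5 RPKM, against 24.1 to 50.1 in the other 5. Jun was at 13.0 and 15.0 RPKM and Fos at 8.52 and 7.77, with 3.93 to 6.68 RPKM for Fos after the other 5. Zfp36, which destabilises inflammatory messenger RNAs, went the other way, from 7.01 to 5.02 RPKM, as did the matrix protein gene Cyr61, from 56.3 to 45.0 RPKM, with 33.7 to 42.8 in the other 5.

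Cardiac stress genes, re-expressed in the overloaded heart, were split. Ankrd1, a sarcomere-associated stress protein that is also a target of YAP, was at 2753 RPKM after cel-miR-67, 1052 after miR-1825, 2043 with miR-590-3p, 1559 with miR-33b*, 1319.5 with miR-302d-3p, 1495 with miR-199a-3p and 1458 with miR-373-3p. It was highest after cel-miR-67 and lowest after miR-1825. The atrial natriuretic peptide Nppa was at 1860.4 RPKM after cel-miR-67, 3054 after miR-1825, 2074 with miR-373-3p, 3098 with miR-590-3p, 1948 with miR-33b*, 561 with miR-199a-3p and 1649 with miR-302d-3p. Here miR-590-3p and miR-1825 were high together and miR-199a-3p far below. Il1rl1, the receptor of interleukin 33, went from 14.5 to 28.1 RPKM, within 19.7 to 32.6 RPKM in the other 5, and the atrial light chain Myl4 from 83.2 to 45.6 RPKM, where miR-373-3p and miR-302d-3p had 838 and 876 RPKM. Over the 17 measured genes the median was -0.13 (0.056 against the median of the other 5 microRNA libraries), with 2 genes at least 1.5-fold higher and 4 lower.

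Hypoxia genes had the highest median of the stress lists, 0.31, within the -0.04 to 0.51 of the other 5. The mitophagy receptor Bnip3 was at 32.8 RPKM after cel-miR-67, 69.6 after miR-1825, 104 with miR-33b*, 51.8 with miR-373-3p, 36.6 with miR-199a-3p, 30.1 with miR-302d-3p and 73.6 with miR-590-3p, below miR-33b* and miR-590-3p. Ldha, lactate dehydrogenase, was highest after miR-1825, from 504 to 895 RPKM, with 868 after miR-33b*. The vasodilator peptide Adm was lowest, from 9.48 to 4.44 RPKM, with miR-33b* at 4.46 RPKM.

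Interferon-induced genes were mostly lower, 16 of 20 below 0 and 7 at least 1.5-fold, at a median of -0.30 inside the -0.68 to -0.17 of the other 5, and of 0.0092 against the median of those 5 libraries. Usp18, Ifi27 and Irf7 went from 10.6 to 3.56 RPKM, 179.7 to 82.2 RPKM and 11.1 to 5.52 RPKM, and at least 1 other microRNA had each of them lower still. Against this trend the chemokine Cxcl10 was at 1.17 RPKM after cel-miR-67, 5.00 after miR-1825, 2.53 with miR-590-3p, 2.40 with miR-33b*, 1.55 with miR-302d-3p, 0.913 with miR-199a-3p and 1.18 with miR-373-3p. The highest of the others was 2.53 RPKM, and the ratio of read rates to cel-miR-67 was 4.29 (95% counting interval 2.88 to 6.57), resting on 30 and 152 reads. The transcription factor Irf1 was also highest of the 7, from 5.73 to 9.37 RPKM. Of 18 inflammation genes 14 were below 0, at a median of -0.28 (0.048 against the other 5 libraries), with Cxcl16 from 8.35 to 5.08 RPKM and Icam1 from 8.53 to 5.71 RPKM, neither the lowest of the 7. BCL2 family and caspase genes had no member past 1.5-fold (22 measured, median -0.05). There the BH3-only protein Bik went from 4.34 to 2.69 RPKM and the anti-apoptotic Bcl2l1 from 7.70 to 5.87 RPKM, both lowest of the 7. In the autophagy and lysosome list (26 measured, median -0.17), Atg12 of the conjugation machinery was lowest of the 7, from 14.3 to 9.05 RPKM, and the muscle ubiquitin ligase Fbxo32 went from 11.0 to 5.66 RPKM, with 5.53 to 16.1 in the other 5.

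**Figure D3:**
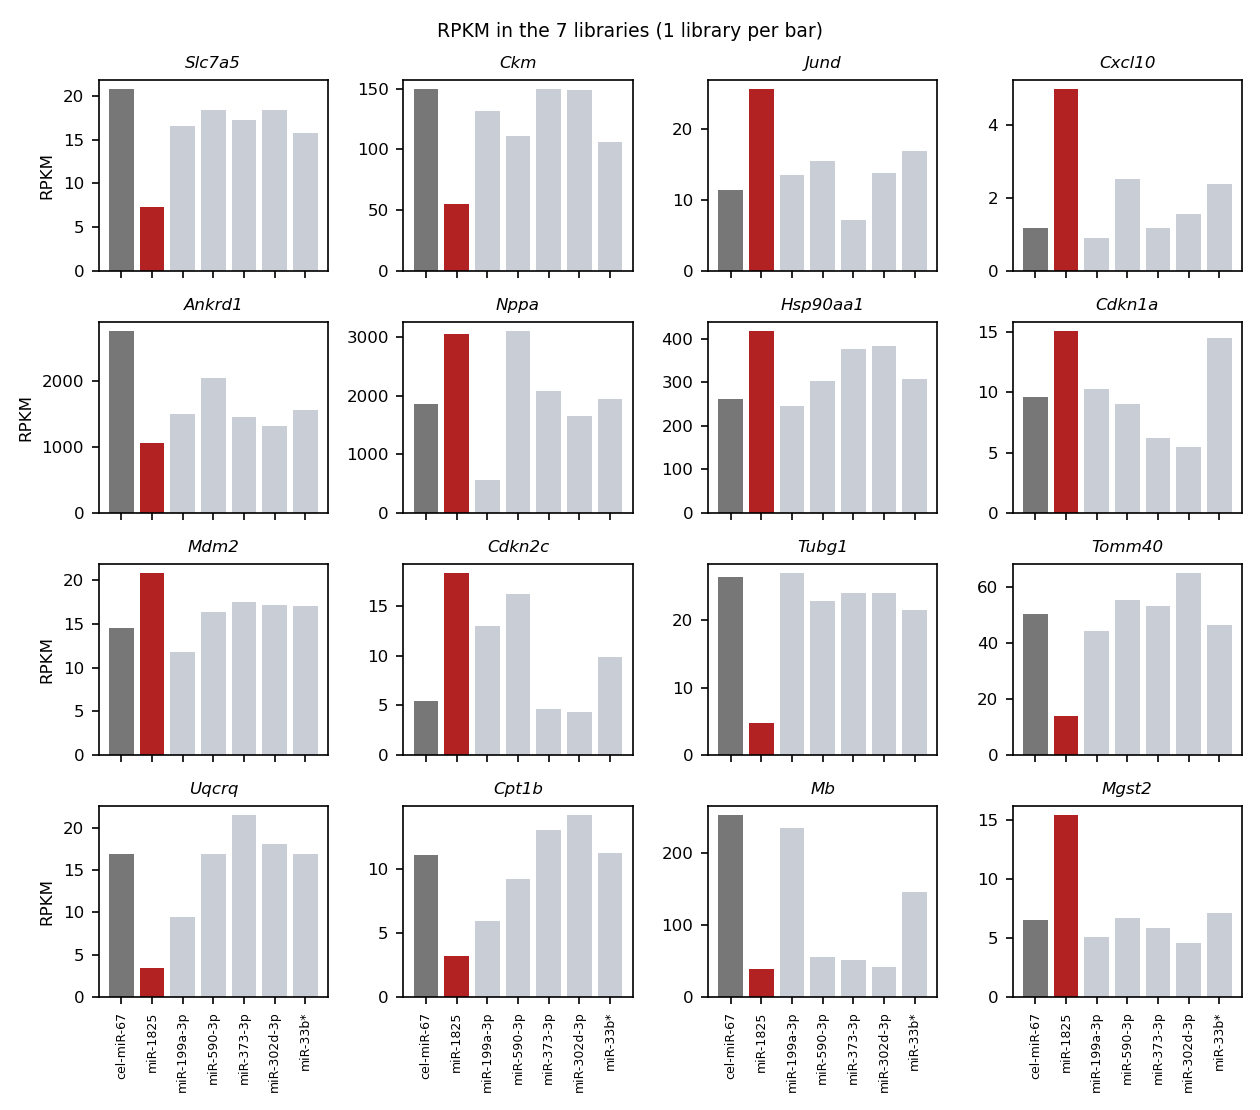
RPKM of 16 genes in each of the 7 libraries, with cel-miR-67 in dark grey, miR-1825 in red and the other 5 microRNAs in light grey; every axis starts at 0 and each bar is 1 library. Slc7a5, Ckm, Tubg1, Tomm40, Uqcrq and Cpt1b are lowest after miR-1825, and Jund, Cxcl10, Hsp90aa1, Cdkn1a, Mdm2, Cdkn2c and Mgst2 are highest there.

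Genes of G2 and M phase were the list with the largest changes, and miR-1825 had the highest level of every 1 of the 27 measured members among the 7 libraries. Of these, 26 were at least 2-fold above cel-miR-67 and the remaining one, the phosphatase Cdc25c, went from 3.26 to 6.02 RPKM. The median change was 1.69, against 0.72 to 1.42 after the other 5 microRNAs, all of which share the low cel-miR-67 level. Ccnb1 was at 10.4 RPKM after cel-miR-67, 107 after miR-1825, 56.3 with miR-373-3p, 66.4 with miR-590-3p, 48.4 with miR-33b*, 44.6 with miR-199a-3p and 50.2 with miR-302d-3p. Every microRNA was above cel-miR-67, and miR-1825 was highest, with a ratio of read rates to cel-miR-67 of 10.3 (95% counting interval 9.30 to 11.5). The guanine exchange factor of cytokinesis, Ect2, was at 12.1 RPKM after cel-miR-67, 66.4 after miR-1825, 23.5 with miR-33b*, 30.1 with miR-373-3p, 29.4 with miR-199a-3p, 20.9 with miR-302d-3p and 38.0 with miR-590-3p, and the next highest library, miR-590-3p, was clear of miR-1825. Prc1, which bundles the microtubules of the central spindle, was at 34.7 RPKM after cel-miR-67, 157 after miR-1825, 103 with miR-590-3p, 72.5 with miR-33b*, 62.3 with miR-302d-3p, 78.8 with miR-199a-3p and 71.7 with miR-373-3p. In all, 7 of the 27 (Ccnb1, Ect2, Cenpf, Prc1, Kif20a, Knstrn and Hmmr) were at least 1.5-fold above every other library. Genes of DNA replication had no common direction. Of 24 S phase genes 12 were above 0 and 12 below, 10 were the lowest of the 7 libraries after miR-1825 and 2 the highest, with a median of -0.0024 where the other 5 had 0.04 to 0.48. The 10 were the helicase subunits Mcm2, Mcm3, Mcm4, Mcm5 and Mcm6, the licensing factors Cdc6, Cdt1 and Orc1, the GINS subunit Gins2 and the polymerase subunit Pola1. Mcm5 was at 12.8 RPKM after cel-miR-67 and 11.2 after miR-1825, with 12.1 to 16.7 after the other 5. In all, 3 were at least 1.5-fold higher, among them Rrm2 of ribonucleotide reductase, from 49.6 to 111 RPKM, highest of the 7, and thymidine kinase Tk1, from 5.27 to 11.4 RPKM, inside the 10.7 to 17.0 of the other 5.

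**Figure D4:**
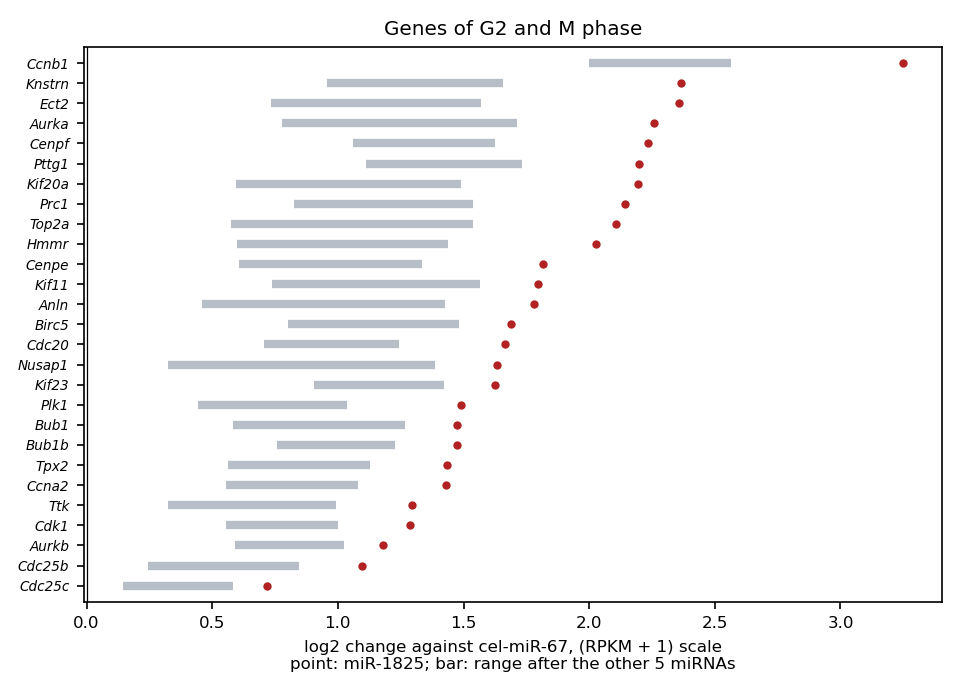
Log2 change against cel-miR-67 on the (RPKM + 1) scale for the 27 measured genes of G2 and M phase: the red point is miR-1825 and the grey bar spans the other 5 microRNAs. Every red point lies to the right of its bar, from 0.72 (Cdc25c) to 3.25 (Ccnb1); all changes share the cel-miR-67 library.

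Promoters of 3 of these genes are shown because such genes are known to be controlled together, through the cell cycle genes homology region bound by the MuvB complex and through CCAAT boxes bound by NF-Y. They are RefSeq sequences of build GRCr8, from 250 bases before to 50 after the start: Ccnb1 at chr2:33655176-33655475, minus strand, Ect2 at chr2:111966577-111966876, minus strand and Hmmr at chr10:25665166-25665465, minus strand. Capitals mark TTTGAA and CCAAT on either strand.
Ccnb1: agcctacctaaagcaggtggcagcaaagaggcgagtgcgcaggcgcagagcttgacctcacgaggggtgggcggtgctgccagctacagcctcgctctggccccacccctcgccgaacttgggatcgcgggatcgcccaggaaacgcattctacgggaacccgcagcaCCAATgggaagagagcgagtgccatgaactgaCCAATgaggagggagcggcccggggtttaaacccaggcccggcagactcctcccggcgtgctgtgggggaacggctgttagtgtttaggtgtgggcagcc
Ect2: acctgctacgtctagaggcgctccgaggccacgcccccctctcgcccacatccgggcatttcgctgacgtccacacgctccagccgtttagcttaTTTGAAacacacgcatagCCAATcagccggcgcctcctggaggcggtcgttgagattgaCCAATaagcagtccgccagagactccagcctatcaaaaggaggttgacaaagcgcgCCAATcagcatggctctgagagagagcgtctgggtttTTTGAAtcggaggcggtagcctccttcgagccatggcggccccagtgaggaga
Hmmr: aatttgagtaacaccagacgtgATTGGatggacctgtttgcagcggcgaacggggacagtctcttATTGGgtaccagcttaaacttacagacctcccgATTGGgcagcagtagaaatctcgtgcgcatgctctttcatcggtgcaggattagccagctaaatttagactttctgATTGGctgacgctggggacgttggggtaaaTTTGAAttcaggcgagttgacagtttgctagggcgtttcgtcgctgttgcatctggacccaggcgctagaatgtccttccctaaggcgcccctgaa
TTTGAA or its complement TTCAAA was found in 17 of the 24 members of the list with a promoter entry (70.8%) and in 18.1% of all 27457 promoters. CCAAT or ATTGG was found in 19 of the 24 (79.2%) and in 37.7% of all, and also in 95.7% of the endoplasmic reticulum list, 64.7% of the S phase list and 63.6% of the cytosolic heat shock list. The letters TTTGAA are in 2 places for Ect2, in 1 for Hmmr and in none for Ccnb1, which holds 2 CCAAT boxes in this window. These counts describe the letters only and say nothing of binding.

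Among protein-coding genes averaging at least 5 RPKM, those farthest below all other libraries were of several kinds. Tubg1, the gamma-tubulin that nucleates microtubules at the centrosome, was at 26.5 RPKM after cel-miR-67, 4.80 after miR-1825, 24.1 with miR-373-3p, 22.8 with miR-590-3p, 21.6 with miR-33b*, 27.0 with miR-199a-3p and 24.1 with miR-302d-3p. The other 6 libraries lay close together, and the miR-1825 level was -1.96 below the lowest of them on the log2(RPKM + 1) scale. Its ratio of read rates to cel-miR-67 was 0.181 (95% counting interval 0.155 to 0.210), and the gene has a close paralog with which reads may be shared. Tomm40, the pore through which proteins enter mitochondria, was at 50.4 RPKM after cel-miR-67, 14.0 after miR-1825, 46.2 with miR-33b*, 53.2 with miR-373-3p, 44.1 with miR-199a-3p, 64.7 with miR-302d-3p and 55.2 with miR-590-3p. This is the next largest distance among these genes, -1.59, with a ratio of 0.278 (95% counting interval 0.248 to 0.312). Uqcrq, a small subunit of respiratory complex III, was at 16.9 RPKM after cel-miR-67, 3.37 after miR-1825, 16.9 with miR-590-3p, 16.9 with miR-33b*, 18.1 with miR-302d-3p, 9.45 with miR-199a-3p and 21.5 with miR-373-3p. The miR-199a-3p library was next lowest. The mechanosensitive channel protein Tmem63b went from 11.5 to 2.696 RPKM, the proton pump accessory protein Atp6ap2 from 21.8 to 7.12 RPKM, the endoplasmic reticulum protein Bcap29 from 12.3 to 3.87 RPKM and the kinase Vrk3 from 10.6 to 4.13 RPKM, and in the other 5 libraries these genes stood at 8.93 to 11.8, 17.7 to 25.0, 10.0 to 15.0 and 10.2 to 13.4 RPKM. Lower to a like degree were the junction protein Arvcf, the guidance ligand Efnb3 and Glod5, at 2.90, 5.01 and 5.55 RPKM against 9.74, 14.4 and 13.5 after cel-miR-67.

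Above all other libraries, outside the cell cycle, stood the matrix collagen Col12a1 at 40.5 RPKM (19.9 after cel-miR-67, 11.3 to 23.3 after the other 5) and the membrane protease Adam9 at 37.3 (20.0 and 18.6 to 21.6). Habp4, an RNA-binding protein, was at 60.2 RPKM against 35.5, and the phosphodiesterase Enpp1 at 18.1 against 7.92. Aspm, Sass6 and Reep4, which act on spindle poles, on the centriole and on the clearing of membrane from mitotic chromosomes, were the other named genes of this group, from 4.96 to 18.3 RPKM, 4.86 to 9.45 RPKM and 3.33 to 10.6 RPKM.

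Genes of the oxidative energy supply were lower. In fatty acid oxidation 16 of 22 measured genes were below 0, 9 were at least 1.5-fold lower and none higher, and 11 were the lowest of the 7 libraries, at a median of -0.44 against -0.18 to 0.10 after the other 5. Cpt1b, the muscle form of the enzyme that admits fatty acids to mitochondria, was at 11.1 RPKM after cel-miR-67, 3.21 after miR-1825, 13.0 with miR-373-3p, 9.23 with miR-590-3p, 11.3 with miR-33b*, 5.99 with miR-199a-3p and 14.2 with miR-302d-3p. It was lowest after miR-1825, next after miR-199a-3p. Mlycd, which removes the inhibitor of that enzyme, was at 13.9 RPKM after cel-miR-67, 5.72 after miR-1825, 10.2 with miR-33b*, 10.9 with miR-373-3p, 10.2 with miR-199a-3p, 13.7 with miR-302d-3p and 13.7 with miR-590-3p, again lowest after miR-1825. Hadh and Acadvl of beta-oxidation went from 8.56 to 4.72 RPKM and 55.2 to 32.1 RPKM. Respiratory chain and citric acid cycle genes had 19 of 21 below 0 and 8 lowest of the 7, at a median of -0.49 (-0.48 to -0.09). Sdha of complex II and Cox6a2 of complex IV went from 203 to 114 RPKM and 515 to 246 RPKM, and in both miR-199a-3p was lower. All 13 mitochondrially encoded protein genes were below 0, from -0.72 for Mt-nd6 to -0.07 for Mt-atp6, and other libraries were lower in each. For each of these genes cel-miR-67 was the highest of the 7 libraries, so that every microRNA was below 0.

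**Figure D5:**
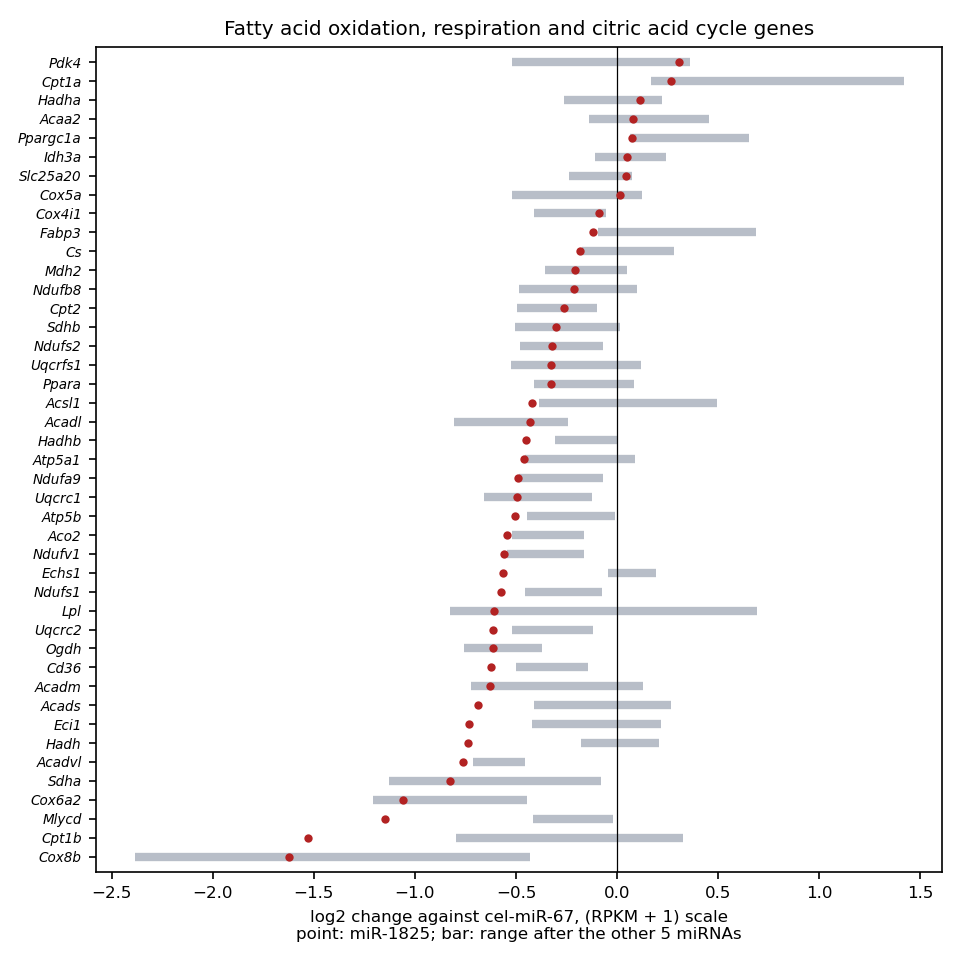
Log2 change against cel-miR-67 on the (RPKM + 1) scale for the 43 measured genes of fatty acid oxidation, the respiratory chain and the citric acid cycle: the red point is miR-1825 and the grey bar spans the other 5 microRNAs. Points left of their bar include Cpt1b (-1.53), Mlycd (-1.15) and Hadh (-0.74), while Sdha and Cox8b lie inside theirs.

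Myoglobin was at 252 RPKM after cel-miR-67, 39.3 after miR-1825, 55.6 with miR-590-3p, 146 with miR-33b*, 41.2 with miR-302d-3p, 235 with miR-199a-3p and 51.6 with miR-373-3p. The miR-1825 library was lowest, and the libraries of miR-590-3p, miR-302d-3p and miR-373-3p were nearly as low. Of 21 sarcomere genes 20 were below 0, 4 at least 1.5-fold and 3 at least 2-fold, at a median of -0.32 within the -0.37 to -0.18 of the other 5. The cardiac troponin Tnni3 was at 351 RPKM after cel-miR-67, 138 after miR-1825, 420.4 with miR-373-3p, 257 with miR-590-3p, 222 with miR-33b*, 229.6 with miR-199a-3p and 469 with miR-302d-3p, lowest after miR-1825 and high with both miR-302d-3p and miR-373-3p. Tcap of the Z-disc went from 60.4 to 20.7 RPKM, with 17.8 to 25.6 RPKM in the other 5. Calcium handling and ion channel genes had a median of -0.36 (0.021 against the median of the other 5 microRNA libraries). Among them the inhibitor of the calcium pump Pln went from 374 to 192 RPKM and was lowest of the 7, and the release channel Ryr2 from 88.0 to 53.9 RPKM. Nkx2-5, a transcription factor of heart development, was highest of the 7, from 29.2 to 45.2 RPKM.

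Markers of other cells of the heart were present and most were lower. Of 13 fibroblast markers 10 were below 0, 6 at least 1.5-fold, and their summed level was 2035 RPKM after cel-miR-67 and 1522 after miR-1825 (1352 to 2035 over the other 6), with none at 0. Postn and Tcf21 went from 107 to 38.3 RPKM and 15.9 to 5.38 RPKM, both lowest of the 7. Matrix genes had 19 of 22 below 0 at a median of -0.29 (-0.42 to -0.27 after the other 5, and 0.079 against the median of those 5 libraries). Endothelial markers summed to 27.6 and 17.9 RPKM over 6 measured, with 17.0 to 21.2 after the other 5. On the same list, Cdh5 and Vwf were each under 1 RPKM after cel-miR-67, at 0.402 and 0.225. Markers of macrophages summed to 26.4 and 22.3 RPKM over 9, with 19.9 to 27.3 after the other 5. Smooth muscle markers summed to 1431 and 1940.4 RPKM, the highest sum of the 7 libraries (1277 to 1782 over the other 6). Of 12 measured 5 were above 0 and 7 below, where Cnn1 went from 88.8 to 253 RPKM and Myh11 from 13.8 to 6.45 RPKM. The part of these cells in the results on stress, matrix and division was not tested.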

How the data were processed

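TruSeq mRNA libraries of neonatal rat ventricular cardiomyocytes were sequenced, 1 library for each of 7 transfected microRNAs. The deposited tables hold RPKM per gene as made by the authors, per the file headers, and, also as deposited, its ratio to the cel-miR-67 library. The submitters' processing notes name STAR 2.7, edgeR and the genome build Rnor_6.0 without giving their parts. The annotation, the read counter and its handling of strand were not given in the sources used here. Single-sample files held the same 119987 values as the series table, and the deposited ratio matched the recomputed one within 1e-06 in all 117199 cases without a 0.

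Low RPKM values were whole multiples of the value of 1 read for 100% of genes, within 0.002 of a read at low counts and at most 0.05 at high ones, so reads, gene lengths and library sizes were recovered. The sizes differ from the sum of listed reads, which was 85.5% to 110% of them, so they carry a factor per library. Changes were log2((RPKM + 1)/(RPKM + 1 of cel-miR-67)) for genes averaging at least 1 RPKM. Exact 95% intervals of read rate ratios were Clopper-Pearson intervals; PCR copies are not independent, so they cover counting error only, and 3 reads in a gene of 2 kb come to 0.056 RPKM after miR-1825. No test was run, since each group has 1 library. The read recovery and the intervals were tested on simulated data. Python 3.11.15, pandas 2.3.3, scipy 1.17.1 and matplotlib 3.10.9 were used.

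Members and gene lists were chosen with earlier results of these data known. Symbols were matched to the table, with older symbols from RefSeq. Named were the 12 highest and 12 lowest protein-coding genes by change, among those averaging at least 5 RPKM, the 12 farthest above and below all other libraries, stress genes at least 1.5-fold outside the changes after the other 5 microRNAs, and in each list up to 4 further members with the largest change, with the 2 most abundant of each cell type list. Outside this rule fall Asns, Atf4, Cdc25c, Cdh5, Chek2, Cxcl10, Ddit3, Fos, Gclc, Hspa1a, Hspa1b, Hspa5, Hspa8, Irf1, Jun, Mcm5, Txnrd1 and Vwf. So do the genes named without values as highest or lowest. All of these were chosen after their values were seen. A few genes are not reported here. Other pseudocounts, filters, scalings and references were tried.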

Additional observations from a re-analysis of the deposited data

How the results depend on the processing

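Of the counts over all genes, those at least 2-fold higher and lower after miR-1825 were 389 and 403 with 0.1 RPKM added in place of 1, 104 and 59 with 5 RPKM added, and 164 and 123 among genes averaging at least 5 RPKM; fewer genes were tested in the last. The genes at least 1.5-fold below all other libraries numbered 195 with 0.1 RPKM added and 23 with 5, and those above 13 with 5. The added value acts on low levels by construction. The other settings that were run (no filter, median-ratio scaling, scaling to nuclear reads, protein-coding genes alone and, for the 2-fold counts, the counting interval beyond 2-fold) stayed within 1.5 times. List medians were held against the median half-width of their members' counting intervals. This is the typical counting error of 1 member and not the error of the list median. List medians larger than this half-width changed sign in 7 cases, each when the median of the other 5 microRNA libraries replaced cel-miR-67. These were small heat shock proteins 0.124, cardiac stress 0.0556, inflammation 0.0483, interferon and RNA sensing 0.00917, calcium handling 0.0211, glycolysis -0.156 and extracellular matrix 0.0786. The cause was not tested. In 11 further cases the sign changed for a median within this half-width, among them the endoplasmic reticulum list, at 0.13 against that reference. A case is 1 list under 1 setting. Besides the 7, 29 cases, 17 of them against that reference, moved by more than this half-width, and 250 did not. For named genes a case is 1 gene under 1 setting. Of these, 89 moved by more than the gene's own counting error, 69 of them with 5 RPKM added, and 555 did not. No library could be left out, since each group has 1. No paired analysis was possible because each group has 1 library and the labels carry no replicate numbers. Depth limits genes of few reads: the interval included 1 for 23 of the 247 higher genes and 23 of the 201 lower ones.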

Other observations

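Rows of small nucleolar RNAs from imprinted clusters were mostly lower after miR-1825. Of 27 measured SNORD113 rows, copies whose reads may be shared, 21 were below 0, 7 were at least 2-fold lower and 1 higher, and 18 were the lowest of the 7 libraries, at a median change of -0.77. Their reads summed to 344 after cel-miR-67 and 236 after miR-1825, and the ratio of read rates was 0.581 (95% counting interval 0.490 to 0.687). Single rows had at most 41 reads after cel-miR-67. The 3 measured SNORD116 rows, with 16 reads in all after cel-miR-67 and 6 after miR-1825, were all below 0. Over all 293 snoRNA rows the median was -0.015, with 17 at least 2-fold higher and 20 lower. The library was made from mRNA, which such short RNAs reach to an unknown degree.

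Further lists were these. The glycolysis list (22 measured) had a median of 0.18 (-0.16 against the median of the other 5 microRNA libraries), with 13 above 0, 4 at least 1.5-fold higher and 2 lower, among them the phosphofructokinase Pfkl from 14.9 to 29.7 RPKM and the lactate exporter Slc16a3 from 18.0 to 33.8, both within the other microRNAs, and the brain-type aldolase Aldoc from 14.6 to 5.24. Cholesterol synthesis (19 measured) had no member past 1.5-fold, and its squalene synthase Fdft1 was the lowest of the 7, from 19.5 to 12.9 RPKM, where miR-302d-3p had 37.1. Targets of YAP (16 measured) had a median of -0.26, within the -0.41 to -0.04 of the other 5. They summed to 3077 RPKM after cel-miR-67, 1327 after miR-1825 and 1534 to 2328 after the other 5, most of which is Ankrd1. In the argonaute and miRNA processing list (11 measured, median 0.18) Ago2 was at 18.9 and 24.7 RPKM. Of 7 epicardial markers 5 were below 0, at a median of -0.35 (-0.29 to -0.01 after the other 5), and Aldh1a2, named after its values were seen, was lowest of the 7, from 7.17 to 1.75 RPKM. Erythroid and Schwann cell markers were near the limit of measurement, with summed levels of 8.83 and 7.46 RPKM over 4 genes and of 1.49 and 1.09 over 1.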
